A study of Equus caballus with 45 samples.

Results

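DRA, CD74 and CIITA encode 3 parts of the MHC class II system, and they were followed here through equine mesenchymal stromal cells (MSC) and 3 kinds of equine joint cells. They are 3 of the 20881 gene rows that both count tables hold, of which 3970 are listed by Ensembl identifier, and all 3 were found by symbol. They were selected on the measured MSC values, as genes induced in MSC by the STING agonist and not by the TLR3 agonist, so their STING, TLR3 and STING against TLR3 values in MSC are given as a description without a test. DRA and CD74 were far higher with the STING agonist in each of the 3 donors. With the TLR3 agonist DRA gave at most 9 counts, while CD74 gave 17 counts against 0 untreated in donor PC. CIITA did not have the pattern, since its count was 0 to 3 in each of the 12 MSC libraries.

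MHC class II molecules present peptides from the endosomal route to CD4+ T cells, and in health they are carried mainly by macrophages, dendritic cells and B cells. DRA encodes the alpha chain of the DR heterodimer, CD74 the invariant chain that occupies the peptide groove during transport and that is also a receptor for the cytokine MIF, and CIITA the transactivator that is recruited to class II promoters by the RFX, CREB and NF-Y factors. In stromal cells class II is usually low and is known to be induced through interferon-gamma and CIITA, whereas class I is raised by type I interferon.

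The series held bulk polyA RNA sequencing counts of 45 libraries in 19 conditions. Bone marrow MSC from the sternum of 3 horses of 3 to 4 years, labelled 92, 99 and PC, were left untreated, given the TLR3 agonist poly I:C, given the STING agonist 2′3′-cGAMP, or labelled CpG, with 1 library per horse and condition (12 libraries). Agonists were applied for 2 hours, and cells were lysed 24 hours after they were washed. The dose of both agonists was 10 μg/mL in the study's methods and 10 ng/mL in the labels, and neither source says how the CpG cells were treated. The methods describe cultured MSC of the study as CD44+CD90+ and CD34-CD45-.

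Synoviocytes, chondrocytes and blood monocyte-derived macrophages, each from 1 healthy horse, made up the other 33 libraries. They received IL-1β and TNF-α (20 ng/mL, although the labels give 10 ng/mL for macrophages) and medium conditioned (CM) by MSC of donors labelled PC, ORC and AG1. These MSC were resting or had been activated through TLR3 or STING. By the study's methods the cells were cultured so for 24 hours, washed, and lysed 24 hours later. The abstract instead gives the cytokines for 2 hours, then a wash, then the medium for 24 hours. The 3 media are called resting MSC-CM, TLR-MSC-CM and STING-MSC-CM. Each cell type also had 1 library with the cytokines alone and 1 with no addition, whose titles carry ORC in 5 libraries and PC in 1. Whether ORC and AG1 are the horses 92 and 99 is not stated. Replicates within a joint cell type were media of 3 MSC donors on cells of 1 horse, so p-values measured the spread between media and cultures. The study's overview names 1 healthy donor horse for the joint cells, while its methods do not say whether the 3 cell types shared it. A difference between cell types thus rests on 1 horse for each type. If the horses differed, cell type could not be told apart from horse.

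Depth was 28570632 to 50109139 counts per MSC library and 23525704 to 54103873 per joint cell library, so that 3 counts, used here as the floor of detection, corresponded to 0.0599 to 0.105 and 0.0554 to 0.128 CPM (counts per 1000000 counts of the library). The TLR3 library of donor 92 stood apart. The summed CPM of 8 type I interferon-induced genes was 43.9 in that library, 53.0 to 79.2 in the untreated MSC, and 3066 and 5728 in the TLR3 libraries of donors 99 and PC, so TLR3 levels are given per donor, and fitted TLR3 values include that library unless stated. Markers fitted the labelled cells for macrophages, with 13 of 13 myeloid markers above the floor in all libraries with resting MSC-CM. The 7 chondrocyte markers summed to 40.9 to 321 CPM in the 11 chondrocyte libraries, 8.51 to 22.6 CPM in synoviocytes and 15.7 to 65.7 CPM in MSC. Among them COL2A1, which encodes the collagen of differentiated cartilage, was at 0 to 0.368 CPM in the 11 chondrocyte libraries. The 3 chondrocyte libraries with media of donor ORC also stood apart. Synoviocyte markers summed to 85.7 to 94.8 CPM there and to 331 to 384 CPM in the 6 with media of PC and AG1. In the same order, MSC markers summed to 24216 to 26133 and 12832 to 15442 CPM. Chondrocyte markers summed to 75.4 to 109 and 40.9 to 61.2 CPM.

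DRA was near the floor in resting MSC and was read in all 3 donors after the STING agonist. The DRA level in untreated MSC was 0.145, 0.0277 and 0.0327 CPM in donors 92, 99 and PC, from 7, 1 and 1 counts. After the TLR3 agonist it was 0.0568, 0.189 and 0.120 CPM, and after the STING agonist 9.03, 6.20 and 1.00 CPM, from 258, 242 and 34 counts. The lowest STING library thus lay above the highest of the other 9 MSC libraries. The mean DRA level was 5.41 ± 4.07 CPM with the STING agonist, 0.0684 ± 0.0663 CPM in untreated MSC and 0.122 ± 0.0662 CPM with the TLR3 agonist (SD, n = 3), and 0.154 CPM for TLR3 without donor 92.

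Within donors, DRA was 62.3 times its untreated level in donor 92 (95% exact counting interval 29.8 to 157), 224 times in donor 99 (39.9 to 8897) and 30.6 times in donor PC (5.13 to 1244). These intervals cover counting error only and are wide because the untreated counts were 1 to 7. Against the TLR3 library of the same donor, the DRA ratio was 159 (43.5 to 1319), 32.8 (17.0 to 72.6) and 8.36 (3.47 to 24.3) in donors 92, 99 and PC. TLR3 against untreated gave DRA ratios of 0.392 (0.0398 to 2.06), 6.84 (0.947 to 300) and 3.66 (0.444 to 168), intervals that all included 1.

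CD74, the partner of DRA in assembly, followed it closely. The CD74 level was 0.393 CPM (19 counts) in untreated MSC of donor 92 and 0 in donors 99 and PC. It was 0, 0.0840 and 0.339 CPM with the TLR3 agonist and 21.6, 7.77 and 1.68 CPM with the STING agonist (618, 303 and 57 counts) in donors 92, 99 and PC. As for DRA, every STING library was above every other MSC library, and the order of donors was the same. The mean CD74 level was 10.4 ± 10.2 CPM with STING, 0.131 ± 0.227 CPM untreated and 0.141 ± 0.177 CPM with TLR3 (SD, n = 3), and 0.212 CPM for TLR3 without donor 92.

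CD74 was 55.01 times higher with STING than untreated in donor 92 (34.9 to 92.0), at least 93.6-fold higher in donor 99 and at least 17.1-fold higher in donor PC, the bounds being set against 3 counts in the untreated library. Against the TLR3 library it was at least 254-fold higher in donor 92, 92.4 times in donor 99 (35.7 to 341) and 4.94 times in donor PC (2.83 to 9.07). Donor PC therefore had the smallest difference between the agonists for both genes. In that donor CD74 was also at least 3.46-fold higher with TLR3 than untreated, from 17 against 0 counts.

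CIITA showed none of this. The CIITA count was 0, 2 and 0 in untreated MSC of donors 92, 99 and PC, 2, 3 and 2 with TLR3, 3, 0 and 0 with STING, and 2, 0 and 0 with CpG. All 12 values were at or under the floor, so no fold is given, and a level up to that of 3 counts was not detectable at this depth. The transactivator was thus not read above the floor in the same STING libraries in which DRA reached 34 to 258 counts.

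**Figure D1:**
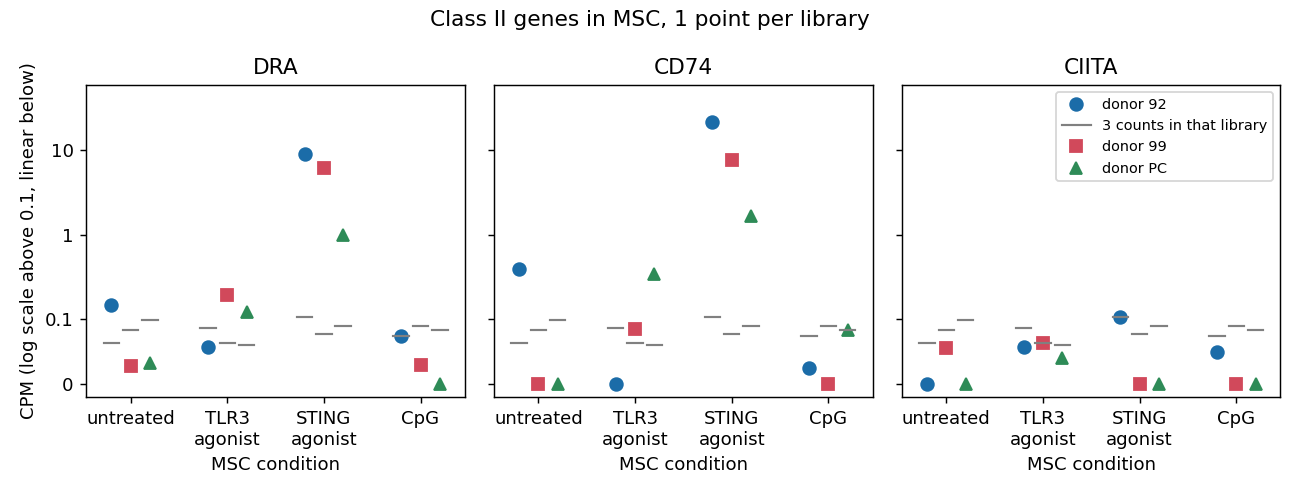
CPM of DRA, CD74 and CIITA in each MSC library (log scale above 0.1 CPM, linear below) by condition, with 1 point per donor and a grey line at the level of 3 counts in that library. DRA and CD74 stand at 1.00 to 21.6 CPM in the 3 STING libraries and under 0.4 CPM in the other 9, while CIITA lies at or under the grey lines everywhere.

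Ranked by fitted log2 fold change among 14872 genes, DRA (6.16) had 26 genes above it and CD74 (6.15) had 27 above it for STING against untreated. For TLR3 against untreated, DRA (0.83) and CD74 (0.11) had 700 and 4564 genes above them. In the direct comparison of the agonists the DRA log2 difference was 5.33 and that of CD74 6.04, with 3 genes and 1 gene above them. Without the TLR3 library of donor 92 the values for TLR3 against untreated were 1.13 for DRA and 0.60 for CD74, and those between the agonists 4.99 and 5.50. These are the comparisons on which the genes were selected, and those that share the untreated libraries are not independent of each other.

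CpG was not part of the selection. The DRA level was 0.0739, 0.0298 and 0 CPM and the CD74 level 0.0246, 0 and 0.0821 CPM in donors 92, 99 and PC, with at most 3 counts in any library. The edgeR log2 fold change against untreated was -0.97 ± 1.13 (SE) for DRA and -1.88 ± 1.76 for CD74, with an adjusted p of 1 for both (0 of 15099 genes called, and 0.305% at an unadjusted p under 0.05). DESeq2 also called 0 genes there. Both estimates rest on untreated donor 92: without that library they were 0.21 and 3.56. At this depth no change in class II with CpG was detectable.

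The other class II genes were taken from 8 lists of 44 measured genes, of which 41 are not DRA, CD74 or CIITA and 36 passed the count filter in MSC. For STING against untreated, edgeR called 0 of the 36 after adjustment (0% of all 14872 genes), and 5 were higher and 0 lower at an unadjusted p under 0.05, against 2.10% of all genes. Their median log2 fold change was 0.27, beside 0.01 over all genes. LAG3, an inhibitory receptor that binds class II, had the smallest p, and CTSS, the endosomal protease that trims CD74, RFX5, a subunit of the factor that recruits CIITA, and IRF2, an interferon regulatory factor (0.60), were also higher.

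LAG3 was read at 0, 0.221 and 0.0981 CPM in untreated MSC of donors 92, 99 and PC, at 0.114, 1.16 and 0.938 CPM with TLR3, and at 1.75, 14.7 and 3.06 CPM with STING. The 3 STING libraries lay above all others, as for DRA, although here donor 99 was highest. Its log2 fold change for STING was 5.94 ± 1.50 (unadjusted p = 0.00362 by edgeR, adjusted p = 1.00). The call changed with the model: the adjusted p was 0.0311 by edgeR with the replicate block of donor (5.90 ± 0.59, in a fit that called 0.0134% of genes) and 0.000350 by DESeq2, which called 0.639% of genes.

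CTSS stood at 46.8, 53.4 and 48.3 CPM untreated and at 86.1, 306 and 213 CPM with STING in donors 92, 99 and PC (log2 fold change 2.02 ± 0.63, edgeR unadjusted p = 0.0114). RFX5 stood at 9.46, 9.46 and 8.66 CPM untreated and 12.5, 16.5 and 17.5 CPM with STING (0.74 ± 0.26, unadjusted p = 0.0189). For both genes the STING libraries were above the untreated ones in each donor, and neither passed the adjusted threshold in edgeR.

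Other chains and loading factors are given by level, without a test of how they differ from DRA and CD74. DRB, the beta chain that pairs with DRA, was already at 5.50, 11.9 and 17.7 CPM in untreated MSC of donors 92, 99 and PC and at 10.7, 18.6 and 21.9 CPM with STING. It was higher with STING in 3 of 3 donors, with a donor order opposite to that of DRA. The DRB log2 fold change against untreated was 0.54 with STING and 0.18 with TLR3. For TLR3 without the library of donor 92 it was 0.61, so the rise was not particular to STING. DQA, an alpha chain of DQ, gave 4, 0 and 0 counts untreated, 0, 0 and 2 with TLR3 and 3, 14 and 0 with STING (log2 fold change 2.25 for STING). DRB, DQA and DQB belong to a multigene family whose reads the counting could split or merge, so their levels are uncertain.

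HLA-DMA, which with HLA-DMB exchanges the CD74 fragment for peptide, was at 5.32, 8.60 and 7.68 CPM untreated and 4.31, 9.20 and 7.39 CPM with STING. HLA-DMB was at 1.49, 1.11 and 0.327 CPM untreated and 1.65, 3.61 and 1.44 CPM with STING in donors 92, 99 and PC, higher with STING in 3 of 3 donors. Its log2 fold change against untreated was 1.19 with STING, 0.26 with TLR3 and 0.29 with TLR3 without the library of donor 92. HLA-DOB gave 0, 2 and 0 counts untreated, 0, 5 and 5 with TLR3 and 0, 9 and 1 with STING (log2 fold change 2.13 for STING). HLA-DOA, which pairs with HLA-DOB to modulate this exchange, and IFNG, which encodes interferon-gamma, were at 0 in all 12 libraries. Neither gene therefore gave a signal in MSC under any condition.

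For TLR3 against untreated, 0 of the 36 genes passed the adjusted threshold (0% of all genes) and 1 was higher at an unadjusted p under 0.05, against 1.15% of all genes; by DESeq2, 0.350% of all genes were called. The median of the list was 0.16 beside 0.02 over all genes. CTSS (1.41), LAG3 (2.88) and RFX5 (0.49), in log2 fold change, were among the 4 smallest p-values and did not pass. Without the TLR3 library of donor 92 they were 1.83, 3.37 and 0.58, and 0 of the tested pathway genes passed the adjusted threshold in a fit that called 0.345% of all genes. For STING against TLR3, 0 passed after adjustment in edgeR and 0.242% of all genes passed unadjusted. LAG3 (3.06 ± 1.27, unadjusted p = 0.0409, and 2.56 without that library) was higher, CD86, a costimulator with 0 to 3 counts per library, was lower, and the median was 0.06 beside -0.01. DESeq2 called 1 gene of 14872 there.

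For CpG, 0 of the 36 genes passed either threshold, and the median of the list was -0.02, as over all genes. The 4 smallest p-values belonged to LAG3 (1.64), CREB1 (-0.21), CD80 (-0.49) and DQA (-1.46), the smallest being an unadjusted p of 0.208 by edgeR.

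**Figure D2:**
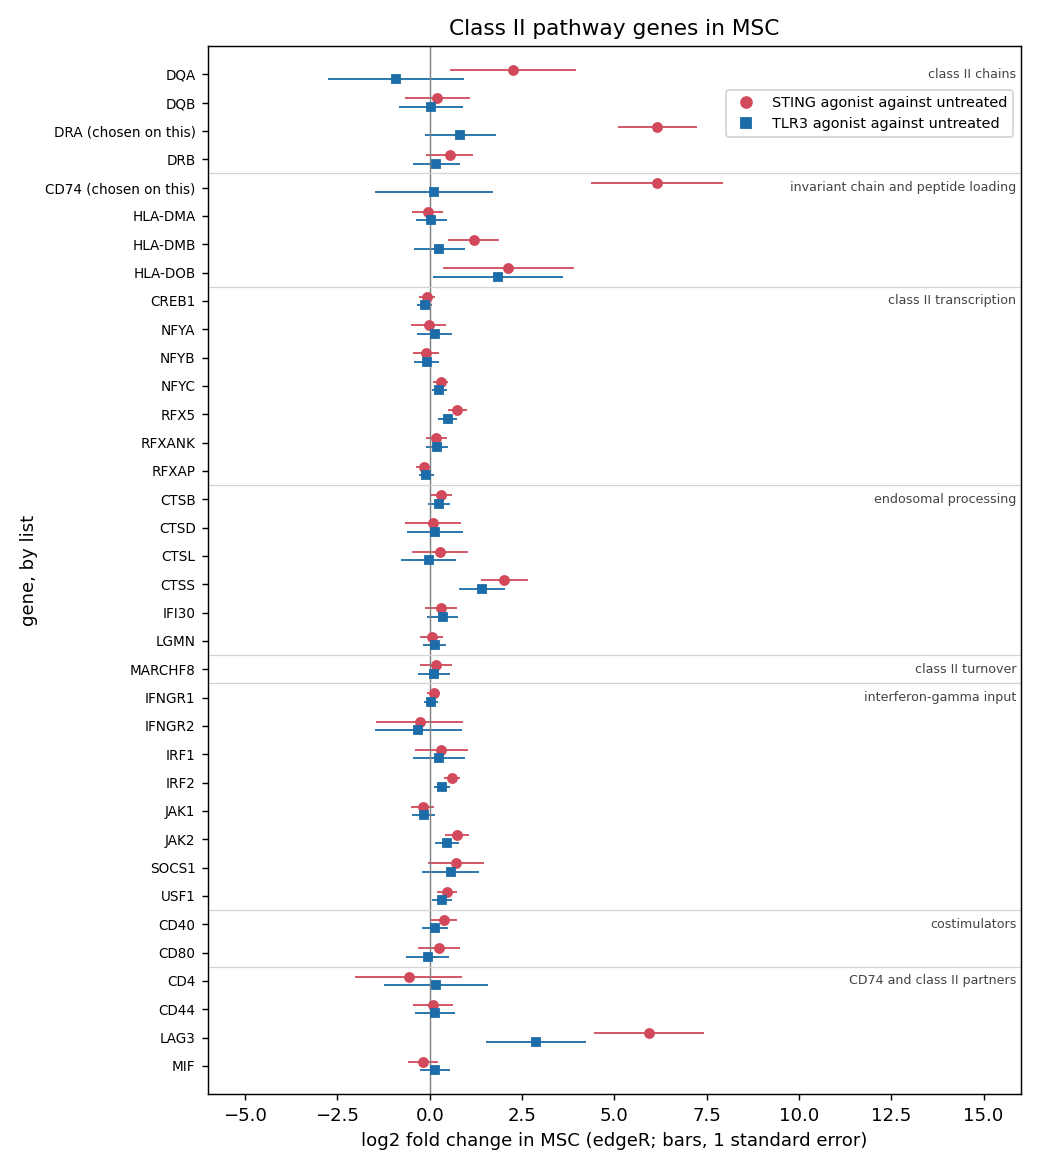
edgeR log2 fold change in MSC of DRA, CD74 and 34 tested class II pathway genes with more than 3 counts in at least 1 untreated, TLR3 or STING library, against untreated, for the STING agonist (red circles) and the TLR3 agonist (blue squares), with bars of 1 standard error. LAG3 (5.94) is the pathway gene nearest to DRA (6.16) and CD74 (6.15) with the STING agonist, and most transcription and processing genes lie near 0.

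The type I interferon genes were higher with either agonist: 8 of 8 passed an unadjusted p under 0.05 in edgeR (2.10% of all genes with STING and 1.15% with TLR3) and 0 passed after adjustment. DESeq2 called 7 of 8 with STING and 6 of 8 with TLR3, among 0.639% and 0.350% of all genes, and edgeR without the TLR3 library of donor 92 called 5 of 8 with TLR3, among 0.345%. From TLR3 to STING their summed level went from 43.9 to 2737 CPM in donor 92, from 3066 to 7010 CPM in donor 99 and from 5728 to 5337 CPM in donor PC. It was thus higher with STING in 2 of 3 donors, whereas DRA was higher in each donor. In donor PC the ISG15 level was 1976 CPM with TLR3 and 1513 CPM with STING, and MX1 was 629 and 546 CPM, both being antiviral genes of the type I interferon response. With STING the sum was lowest in donor 92, where DRA and CD74 were highest. B2M, the light chain of class I, was 393, 477 and 587 CPM untreated and 1907, 6313 and 4246 CPM with STING in donors 92, 99 and PC. The summed level of 8 class I genes, B2M among them, was 523, 3724 and 4212 CPM with TLR3 in donors 92, 99 and PC. With STING it was 2308, 6911 and 4795 CPM, higher in each donor, as for DRA.

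In bulk RNA a few cells with much class II and many cells with little cannot be told apart, so the markers of professional antigen-presenting cells are given beside the rise. The sum of 13 measured myeloid markers was 13.0 to 17.1 CPM in untreated MSC, 11.0 to 139 CPM with TLR3 and 54.6 to 326 CPM with STING. Most of it was CD68, a lysosomal protein that stromal cells also carry, at 12.7, 14.9 and 12.2 CPM untreated and 53.3, 324 and 195 CPM with STING. Without CD68, the other 12 summed to 0.817 to 2.21 CPM untreated and 1.00 to 1.87 CPM with STING, and CD163, AIF1 and C1QB were at 0 in the 3 untreated and 3 STING libraries.

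Summed markers of other lineages overlapped between untreated and STING MSC. B cell markers (4 measured) summed to 6.40 to 9.21 CPM over the 12 MSC libraries with MS4A1 at 0, T cell markers (4) to 0 to 0.103 CPM, and dendritic cell markers (6) to 0.483 to 2.24 CPM with XCR1 and CLEC9A at 0. Endothelial markers (4) summed to 39.9 to 52.5 CPM untreated and 26.4 to 52.5 CPM with STING.

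The composition of class II counts in STING MSC was set beside that of macrophages as counts per 100 DRA counts in the same library, a ratio that needs no scaling between the separately deposited tables. CD74 gave 240 (207 to 278), 125 (105 to 149) and 168 (107.8 to 264) per 100 DRA in donors 92, 99 and PC, and 233 to 351 with a median of 266 in the 11 macrophage libraries. Donor 92 thus lay inside the macrophage range, donor 99 below it, and the interval of donor PC reached into it. DRB gave 118, 300 and 2185 per 100 DRA in STING MSC and 64.0 to 71.8 in macrophages.

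CIITA gave 1.16 (0.238 to 3.44) per 100 DRA in donor 92, from 3 counts, and 0 of 242 and 0 of 34 in donors 99 and PC, which allow up to 1.54 and 11.5. Pooled over the 3 donors the ratio was 0.562 (0.116 to 1.65), beside 1.74 to 4.08 in single macrophage libraries and 2.65 (2.61 to 2.699) over all of them. These intervals cover counting error only, the 3 CIITA counts are all of donor 92, and DRA, the denominator, was used in the selection, so the ratios are a description. HLA-DMA gave 47.7, 148 and 738 per 100 DRA in STING MSC and 6.41 to 12.3 in macrophages.

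**Figure D3:**
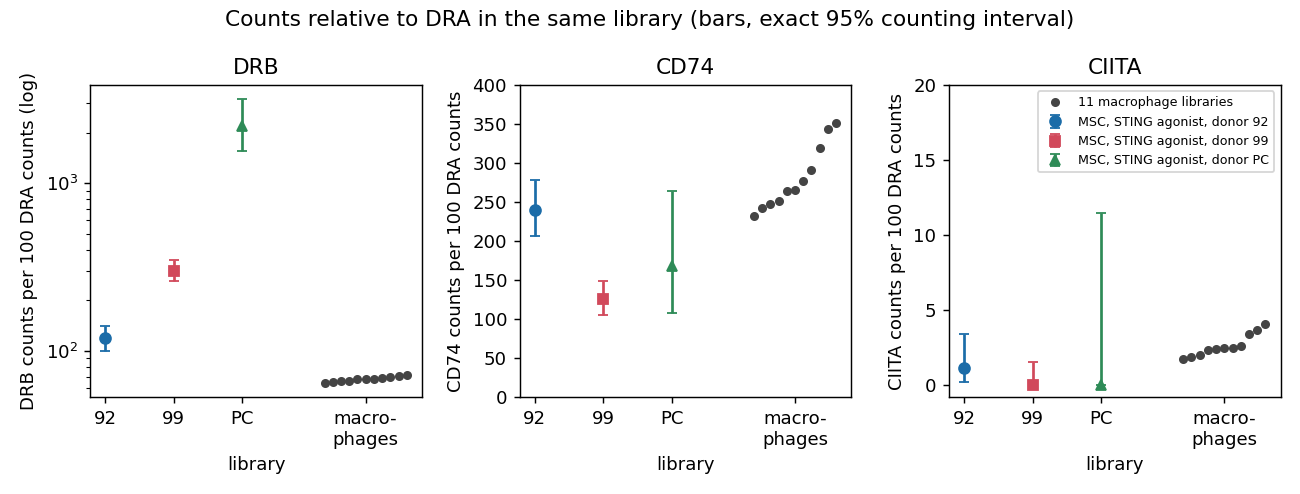
Counts of DRB (log axis), CD74 and CIITA per 100 DRA counts in the same library, for the 3 STING MSC libraries with exact 95% counting intervals and for the 11 macrophage libraries (grey points, sorted by value). CD74 of donor 92 (240) lies within the macrophage range of 233 to 351, DRB (118 to 2185) lies above that of macrophages (64.0 to 71.8), and CIITA was counted in donor 92 only.

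Levels differed far more than these ratios. The DRA level of STING MSC was 0.606%, 0.416% and 0.0671% of the macrophage median of 1491 CPM in donors 92, 99 and PC, and CD74 was 0.561%, 0.201% and 0.0435% of 3856 CPM. CSF1R, the receptor that macrophages need for survival, was at 0%, 0.00678% and 0.0117% of its macrophage median in the same libraries, and PTPRC, the leukocyte marker CD45, at 0.0027%, 0% and 0.00227%. Of the 13 myeloid markers, CD68, CD14 and ITGAM had a higher share of their macrophage level than DRA and CD74 in each donor (CD14 2.63%, 0.609% and 0.699%), as did LYZ in donors 92 and 99, and the other 9 had a lower share. The macrophage medians of CD14, ITGAM and LYZ were low, at 25.2, 4.33 and 2.20 CPM.

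Over the 12 MSC libraries the gene whose log2(CPM + 1) was most like that of DRA was CD74 (Pearson r = 0.989), and the reverse. Without the STING libraries of donors 92 and 99, the r over 10 libraries was 0.948, and without all 3 STING libraries it was 0.604 over 9 libraries, where both genes were near the floor. The next genes by likeness to DRA were an entry without a symbol, ENSECAG00000038391 (0.871), YJU2 (0.859), PRPF3 (0.859) and MED17 (0.842), and those next to CD74 were YJU2 (0.847), RCC1L (0.843), PRPF3 (0.843) and PLAC8B (0.835). Without the same 2 libraries these were between 0.432 and 0.787, and over the 9 libraries without STING they were 0.736 to 0.925 with DRA and 0.444 to 0.659 with CD74, again near the floor. The level of PLAC8B was 18.1 to 126 CPM with STING and 0 to 24.3 CPM in the other 9 libraries, whereas YJU2 ranged from 19.5 to 25.1 CPM and from 13.2 to 20.2 CPM. For CIITA the likeness (TMEM81, 0.827, PIM3, 0.770, INPP4B, 0.732, LIME1, 0.731, and TMEM128, 0.711) compares counts of 0 to 3 and is no finding. These correlations are descriptions over libraries that share donors.

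Class II genes separated macrophages from both stromal joint cells. With resting MSC-CM, DRA in macrophages was 1491, 1233 and 940 CPM with media of donors PC, ORC and AG1, CD74 was 3961, 3409 and 3299 CPM, and CIITA was 36.2, 21.5 and 38.4 CPM. Synoviocytes held 0 to 4 DRA counts and 0 to 6 CD74 counts in any of their 11 libraries, and chondrocytes 0 to 2 and 0 to 3. A single chondrocyte library held any DRA count. In counts pooled over the 3 libraries with resting MSC-CM, macrophages exceeded synoviocytes 21315 times in DRA (9133 to 65646), 156951 times in CD74 (43448 to 1296000) and 148 times in CIITA (95.7 to 243).

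Against chondrocytes the pooled ratio was 56544 for DRA (15653 to 466905), at least 111030-fold higher for CD74, which had 0 counts in chondrocytes, and 285 for CIITA (159 to 572). All 3 genes passed edgeR in both comparisons, where 71.6% and 71.5% of 15599 genes passed too. The adjusted p was 4.88e-10, 1.09e-09 and 6.37e-08 against synoviocytes and 4.15e-10, 9.69e-10 and 4.59e-08 against chondrocytes for DRA, CD74 and CIITA. Since most genes differed between these cells, the calls alone do not set class II apart.

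Of the 41 other class II genes, 36 were higher and 2 lower in macrophages than in synoviocytes, with a median log2 difference of 3.99 beside 0.04 over all genes. Against chondrocytes 33 were higher and 2 lower, with a median of 3.55. The 2 lower genes were the same in both: MIF, the ligand of CD74 (-1.86 against synoviocytes and -2.02 against chondrocytes), and NFYA, a subunit of NF-Y (-0.41 and -0.53). IRF8 (11.05 against synoviocytes), DQA (13.13) and CD86 (12.93) were far higher, and IFNG was higher by 10.53 against either cell type. Of the factors that recruit CIITA, the RFX subunits RFX5 (0.40), RFXANK (0.35) and RFXAP (1.68), the NF-Y subunit NFYC (0.50) and CREB1 (0.29) had smaller differences against synoviocytes.

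T cell markers were also present in the macrophage cultures: all 4 were read, at a summed 229 to 413 CPM over the 11 libraries, against 0 to 0.0734 CPM in synoviocytes with resting MSC-CM. Dendritic cell markers summed to 171 to 439 CPM. Their part in the macrophage class II and IFNG levels was not tested.

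**Figure D4:**
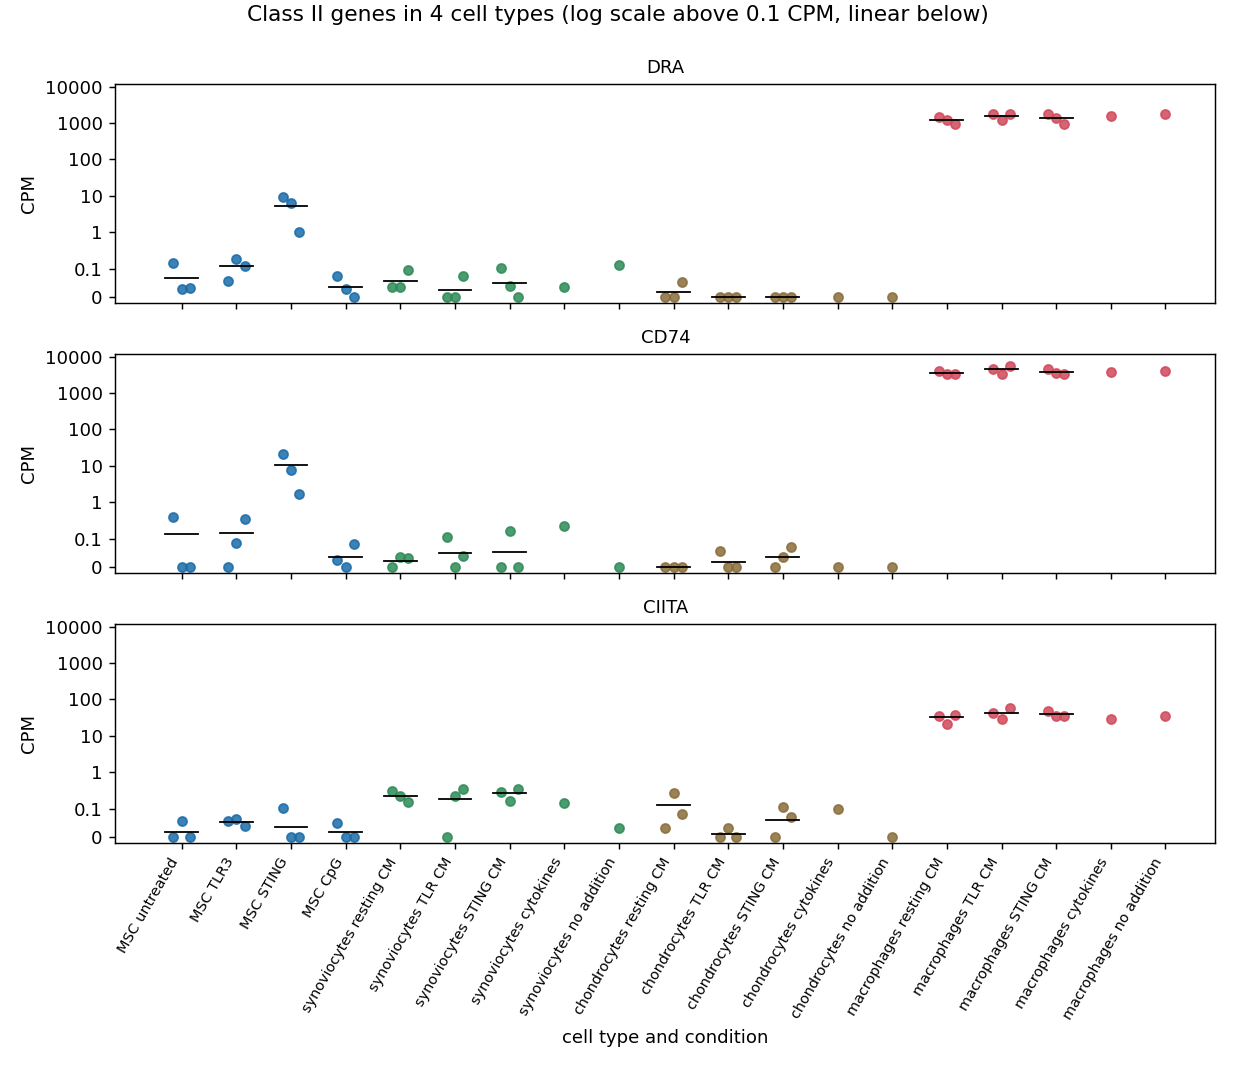
CPM of DRA, CD74 and CIITA in all 45 libraries by cell type and condition (log scale above 0.1 CPM, linear below), with 1 point per library and a bar at the mean of each replicated condition. Macrophages lie at 940 to 1816 CPM for DRA, followed by STING-treated MSC at 1.00 to 9.03 CPM, and all other conditions lie below 0.2 CPM.

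In the order of the 19 conditions by mean level, the 5 macrophage conditions came first for all 3 genes, and their replicated conditions overlapped. STING MSC came next for DRA and CD74 and overlapped neither the macrophages above nor the conditions below. All 13 conditions below it for DRA overlapped with their neighbours in level. For CIITA the synoviocyte conditions with a medium came after macrophages (0.263 ± 0.0913 CPM with STING-MSC-CM, SD, n = 3), and STING MSC came in place 14 (0.0350 ± 0.0606 CPM), with every neighbour below macrophages overlapping. The MSC and joint cell libraries come from separate tables of raw counts, so levels across them are set side by side without a test.

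Stromal joint cells held few reads of any of the 3 genes. In synoviocytes the CIITA count was 9, 6 and 5 with resting MSC-CM, 0, 6 and 9 with TLR-MSC-CM and 8, 4 and 15 with STING-MSC-CM of donors PC, ORC and AG1, 4 with the cytokines alone and 1 with no addition. In chondrocytes it was 1, 7 and 3 with resting MSC-CM, 0, 1 and 0 with TLR-MSC-CM and 0, 3 and 3 with STING-MSC-CM, 4 with the cytokines and 0 with no addition. CIITA thus exceeded 3 counts in 9 of the 11 synoviocyte and 2 of the 11 chondrocyte libraries. CD74 exceeded 3 counts in 3 synoviocyte libraries, 5 with TLR-MSC-CM of donor PC, where CIITA was 0, 4 with STING-MSC-CM of donor ORC and 6 with the cytokines alone, where CIITA was 4 in both. DRB, with its uncertain counts, was at 5.57 to 17.1 CPM in these 22 libraries, with a median of 12.3 CPM.

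The medium did not change these counts detectably. In synoviocytes the CIITA log2 fold change was 0.24 ± 0.79 with STING-MSC-CM (edgeR adjusted p = 0.951), -0.44 ± 0.85 with TLR-MSC-CM (adjusted p = 0.875) and 0.68 ± 0.82 for STING-MSC-CM against TLR-MSC-CM (adjusted p = 1.00). No gene was called in these comparisons (0%), and 7.60%, 10.0% and 2.02% of 14584 genes passed an unadjusted p under 0.05. DESeq2 called 0, 2 and 0 genes.

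In chondrocytes the CIITA log2 fold change was -0.998 ± 1.14 under STING-MSC-CM. It was -3.34 ± 1.42 under TLR-MSC-CM (edgeR unadjusted p = 0.0427, adjusted p = 1.00), the latter from 11 counts against 1. Of 14304 genes, edgeR and DESeq2 called 0 in each comparison (0%), and 0.909%, 0.559% and, for STING-MSC-CM against TLR-MSC-CM, 0.811% passed unadjusted. The ORC library gave 7 of the 11 counts with resting MSC-CM. Without it the 2 values were 0.0825 and -2.27, and without all 3 ORC chondrocyte libraries CIITA, with 7 counts in the other 6, did not pass the count filter. The part of what sets these libraries apart was not tested. DRA and CD74 did not pass that filter in chondrocytes. The CIITA level with resting MSC-CM was 0.229 ± 0.0764 CPM in synoviocytes and 0.130 ± 0.130 CPM in chondrocytes (SD, n = 3). The log2 difference of -0.93 ± 0.70 did not pass (edgeR adjusted p = 0.414, in a comparison that called 18.1% of genes). With all 27 libraries with a medium in 1 fit, whose share of genes called is not given here, it did pass (-1.84, edgeR adjusted p = 0.0123). Without the chondrocyte ORC library it was -1.91 (adjusted p = 0.127 by edgeR).

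The other class II genes of the stromal cells moved little with the medium. In synoviocytes, 36 genes were tested and 0 passed after adjustment. With STING-MSC-CM 1 of 36 passed unadjusted (7.60% of all genes), IFNGR2, the second chain of the interferon-gamma receptor (0.35 ± 0.11, edgeR unadjusted p = 0.00715), and CTSD (0.22), USF1 (0.16) and IRF8 (-1.61) came next by p. With TLR-MSC-CM 3 were higher and 1 lower unadjusted, 4 of 36 beside 10.0% of all genes, namely IFNGR2 (0.39), IRF1 (0.42), JAK2 (0.17) and HLA-DMB (-0.89). STING-MSC-CM against TLR-MSC-CM gave 0 higher and 3 lower (2.02% of all genes), MARCHF1 (-4.66), IRF1 (-0.36) and IRF8 (-2.03), with HLA-DMA (0.30) next by p. The first 2 counts are under or near the share over all genes. IRF8 was at 0 to 0.261 CPM in synoviocytes, near the floor, so its fold changes rest on few reads. The MARCHF1 value had a standard error of 1.75. In chondrocytes 0 of 34 passed either threshold in any of the 3 comparisons. The smallest p-values there belonged to CTSL (-0.95) with STING-MSC-CM, SOCS1 (0.74) with TLR-MSC-CM and NFYB (-0.23) between them.

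Between the stromal cells with resting MSC-CM, 4 of the 41 genes were higher and 4 lower in chondrocytes, beside 18.1% of all genes called in either direction. The higher genes were CTSD (1.59), JAK2 (0.89), DQB (1.63) and IFNGR2 (0.98), and the lower ones CTSL (-2.26), JAK1 (-0.58), DRB (-0.91) and IRF8 (-5.16). All are log2 differences with an edgeR adjusted p between 0.000111 and 0.0224. IRF8 was at 0.0632 to 0.184 CPM in these synoviocytes and 0 in chondrocytes, so its difference rests on few reads.

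In macrophages, class II levels overlapped between the 3 media. DRA was 1491, 1233 and 940 CPM with resting MSC-CM, 1765, 1172 and 1734 CPM with TLR-MSC-CM, and 1816, 1375 and 965 CPM with STING-MSC-CM of donors PC, ORC and AG1. CD74 was 4655, 3417 and 5545 CPM with TLR-MSC-CM and 4486, 3451 and 3322 CPM with STING-MSC-CM. CIITA was 41.5, 28.9 and 59.3 CPM with TLR-MSC-CM and 47.4, 34.4 and 35.4 CPM with STING-MSC-CM. The TLR-MSC-CM library of donor AG1 was the highest of the 9 for CD74 and CIITA.

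The mean DRA level was 1221 ± 275.5, 1557 ± 334 and 1385 ± 425 CPM with resting, TLR and STING medium (SD, n = 3). CD74 was 3556 ± 355, 4539 ± 1069 and 3753 ± 638 CPM, and CIITA 32.0 ± 9.17, 43.2 ± 15.3 and 39.1 ± 7.20 CPM. Compared with resting medium, the log2 fold change with STING medium was 0.17 ± 0.25 for DRA, 0.06 ± 0.18 for CD74 and 0.27 ± 0.25 for CIITA (edgeR adjusted p of 0.933, 0.966 and 0.907). No gene passed after adjustment (0%) and 4.76% of 15052 passed unadjusted, while DESeq2 called 5 genes.

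TLR-MSC-CM against resting MSC-CM gave 0.29 ± 0.25, 0.29 ± 0.18 and 0.37 ± 0.25 for DRA, CD74 and CIITA (edgeR adjusted p = 0.998 for each, with 0% of genes called and 2.13% passing unadjusted, and 0 by DESeq2). STING-MSC-CM against TLR-MSC-CM gave -0.12 ± 0.25, -0.23 ± 0.18 and -0.09 ± 0.25 (edgeR adjusted p of 0.922, 0.792 and 0.947, with 0% called and 6.60% passing unadjusted, and 33 genes by DESeq2). None of the 9 differences passed the adjusted threshold in edgeR. Differences of this size cannot be told from 0 here, which does not show that the media acted alike.

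Within media donors, DRA with TLR-MSC-CM was 1.18, 0.950 and 1.84 times the level with resting MSC-CM in donors PC, ORC and AG1, CD74 was 1.18, 1.00 and 1.68 times, and CIITA 1.15, 1.34 and 1.55 times. CIITA was thus higher in 3 of 3 donors, while most of the DRA and CD74 difference came from AG1. With STING-MSC-CM the ratios were 1.22, 1.11 and 1.03 for DRA, 1.13, 1.01 and 1.01 for CD74, and 1.31, 1.60 and 0.923 for CIITA. The AG1 library with TLR-MSC-CM also had the highest summed T cell markers (413 CPM, against 229 to 280 CPM in the other 8 libraries with a medium), the highest summed dendritic cell markers (439 CPM) and the highest IFNG (14.0 CPM). The part of these cells in its class II level was not tested.

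The cytokines alone, in 1 library per condition and thus without a replicate check, gave 1589 CPM of DRA, 3856 CPM of CD74 and 30.0 CPM of CIITA, and macrophages with no addition 1779, 4140 and 35.9 CPM. The ratio of cytokines to no addition was 0.893 for DRA (0.881 to 0.906), 0.931 for CD74 (0.923 to 0.940) and 0.834 for CIITA (0.756 to 0.920). These intervals cover counting error only. All 6 values lay within the range of the 9 macrophage libraries with a medium.

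**Figure D5:**
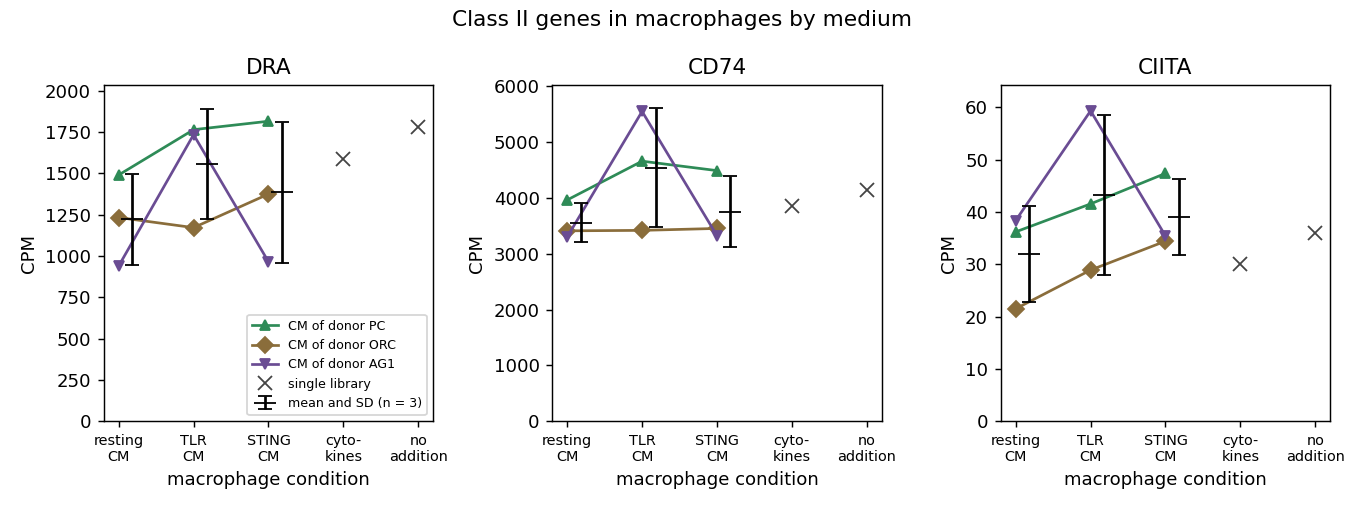
CPM of DRA, CD74 and CIITA in the 11 macrophage libraries by condition, with lines joining media of the same MSC donor, bars of mean and SD (n = 3) and crosses for the single libraries. The 3 media overlap for each gene, and TLR-MSC-CM of donor AG1 stands highest for CD74 (5545 CPM) and CIITA (59.3 CPM).

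Of the 41 other class II genes in macrophages, edgeR called 0 after adjustment in any of the 3 medium comparisons. With STING-MSC-CM 3 were higher and 1 lower at an unadjusted p under 0.05, against 4.76% of all genes. HLA-DMA stood at 124, 79.1 and 79.6 CPM with resting MSC-CM and 223, 130 and 111 CPM with STING-MSC-CM of donors PC, ORC and AG1 (log2 fold change 0.71 ± 0.29), and HLA-DMB at 318, 190 and 157 CPM and 553, 340 and 270 CPM (0.79 ± 0.33, edgeR unadjusted p = 0.0379). Both subunits of the peptide exchange factor were higher in 3 of 3 donors. MARCHF1, the ubiquitin ligase that removes class II from the surface, was higher (0.60 ± 0.25) and RFXAP lower (-0.31 ± 0.11).

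With the replicate block of media donor, HLA-DMB passed for STING-MSC-CM against resting MSC-CM (0.79 ± 0.12, edgeR adjusted p = 0.0185, 0.531% of genes called). Without the block, STING-MSC-CM against TLR-MSC-CM had 4 genes higher and 1 lower unadjusted, against 6.60% of all genes. With the block, that comparison gave 4 adjusted calls among 2.23% of genes: MARCHF1 (0.79), LGMN, an endosomal protease (0.83), IRF2 (0.47) and HLA-DMB (0.57). LGMN stood at 4203, 4746 and 2353 CPM with resting MSC-CM and 5315, 5775 and 5344 CPM with STING-MSC-CM. With TLR-MSC-CM against resting MSC-CM 0 of the 41 passed unadjusted, against 2.13% of all genes. The 4 smallest p-values belonged to CXCR4 (0.53), NFYC (-0.16), LAG3 (0.36) and CD44 (-0.22).

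Whether the medium acted differently on the 3 genes in different cell types was tested with interaction terms. None of 18 tests (3 genes, 2 media and 3 pairs of cell types) passed after adjustment, in comparisons where edgeR called 0% of 16584 genes, and 1 passed unadjusted. For STING-MSC-CM the unadjusted background was 4.38% for macrophages against synoviocytes, 3.59% for macrophages against chondrocytes and 1.74% for chondrocytes against synoviocytes. For TLR-MSC-CM it was 3.99%, 2.64% and 1.72% in the same order. The DRA and CD74 tests rest on at most 3 DRA and 5 CD74 counts per stromal library with a medium. Their standard errors were 1.29 to 2.28, so they cannot tell whether the media acted differently. The 1 test that passed unadjusted was CIITA with TLR-MSC-CM in macrophages against chondrocytes. Its log2 difference was 3.65 ± 1.53 (edgeR unadjusted p = 0.0255, adjusted p = 1.00), which rests on 11 and 1 counts in the chondrocytes. Without the 3 ORC chondrocyte libraries it was 4.42 ± 2.77 (edgeR unadjusted p = 0.126).

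Over the 33 joint cell libraries the levels fell into 11 macrophage libraries and 22 others, so the likeness of genes across them is set by that split and no pooled correlation is given. By that measure the genes most like DRA were an entry without a symbol (ENSECAG00000024259), TESPA1, CD74, RCSD1 and a second entry without a symbol. Within the 11 macrophage libraries r with DRA was 0.977 for ENSECAG00000024259, 0.837 for TESPA1, 0.822 for CD74 and 0.835 for RCSD1. ENSECAG00000024259 was at 147 to 329 CPM in macrophages, 0.235 to 3.18 CPM in STING MSC and 0 to 0.180 CPM in the other MSC, the only one of the named genes of this group beside CD74 whose 3 STING MSC libraries lay above all other MSC libraries. RAC2, GNA15, GIMAP6, ARHGAP25 and LAPTM5 were nearest to CD74, with r of 0.333 to 0.677 within macrophages. CD69, ALDH1A2, FBP1, IRF8 and an entry without a symbol were nearest to CIITA, with r of 0.799 to 0.941. These are descriptions over libraries of cells from 1 horse.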

How the data were processed

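RNA of 12 equine MSC libraries and 33 joint cell libraries was sequenced in bulk. The authors trimmed reads with cutadapt 1.12, aligned them with STAR to EquCab 3.0, counted them with HTSeq 0.11.0 and used DESeq2. The deposited values are raw read counts per gene in 2 tables, 1 for MSC and 1 for joint cells, which were not normalized together. Whether counting used strand is not given in the sources used here. CPM was computed as counts per 1000000 gene counts of the library.

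A gene entered a fit if its counts summed to at least 10 there. Tests used edgeR 4.0.16 (quasi-likelihood, TMM scaling, limma 3.58.1, R 4.3.3) with Benjamini-Hochberg adjustment over all genes and a threshold of 0.05, without a donor term. Each fit held the groups of its cell type or comparison. Alternatives were DESeq2 1.42.0, a replicate block of donor, other scaling and filters, wider sets of libraries, leaving out each library and, chosen after seeing the data, leaving out the 3 chondrocyte libraries with medium of donor ORC. Scripts were checked on simulated data. Same-numbered MSC libraries come from the same animal, and same-numbered joint libraries received medium of the same MSC donor. The correlation of their deviations from group means was 0.666 to 0.913 in MSC, 0.609 to 0.914 in chondrocytes, 0.389 to 0.638 in macrophages and -0.428 to 0.426 in synoviocytes.

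The 3 genes and all lists were chosen with earlier results of these data known. Pathway genes named are those past the adjusted threshold or, where fewer than 4 passed, the 4 with the smallest p, and likeness names the 5 genes with the highest Pearson r among genes with a mean of at least 1 CPM. Other genes were named after their values were seen, and 1 pathway gene is counted but not reported here. Counting intervals are exact 95% intervals, and a lower bound sets the empty library at 3 counts.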

Additional observations from a re-analysis of the deposited data

Results flagged for a closer look

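The change of CIITA with TLR-MSC-CM differed between macrophages and chondrocytes by 3.65 on the log2 scale (SE 1.53, edgeR unadjusted p = 0.0255, adjusted p = 1.00), which marked it as a difference between cell types. CIITA was higher with TLR-MSC-CM than with resting MSC-CM in 3 of 3 media donors in macrophages. In chondrocytes the counts were 1, 7 and 3 with resting MSC-CM and 0, 1 and 0 with TLR-MSC-CM of donors PC, ORC and AG1. They were lower in 3 of 3 donors, but those of PC and AG1 were at or under the floor of 3 counts, so their direction cannot be read. When each library was left out in turn, the difference ranged from 2.67 to 5.38. Without the 3 ORC chondrocyte libraries it was 4.42 ± 2.77 (edgeR unadjusted p = 0.126). The difference was 1 of 18 such tests and did not pass the adjusted threshold.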

How the results depend on the processing

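Of 74 fold changes, call counts and levels, 57 kept their direction and side of the threshold under all alternatives run for them. CIITA in chondrocytes against synoviocytes passed only with 27 libraries in 1 fit (-1.84), and that fit called 13 pathway genes higher and 9 lower. The share of all genes called in that fit is not given here, so these counts are no result about class II. With the replicate block, pathway genes called higher rose from 0 to 1 for STING MSC, to 1 for macrophages with STING-MSC-CM and to 4 for STING-MSC-CM against TLR-MSC-CM. DESeq2 called 1 for STING MSC. The block changed no other call counted here. Leaving out the 3 ORC chondrocyte libraries, chosen after seeing the data, changed no call.

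Leaving out each library in turn turned directions that had not passed. The log2 ranges for CpG were -2.10 to 0.21 (DRA) and -3.13 to 3.56 (CD74), turned by untreated donor 92. In macrophages they were -0.0701 to 0.382 (DRA) and -0.0806 to 0.156 (CD74) for STING-MSC-CM, turned by STING-MSC-CM of PC, and -0.35 to 0.10 (DRA) and -0.29 to 0.17 (CIITA) for STING-MSC-CM against TLR-MSC-CM. For CIITA they were -1.58 to 0.0825 in chondrocytes with STING-MSC-CM, and -0.0161 to 0.52, -1.30 to 0.31 and -0.0636 to 1.54 in synoviocytes with STING-MSC-CM, TLR-MSC-CM and between them. Pathway genes called lower in macrophages than synoviocytes were 1 to 2, and called higher in chondrocytes 2 to 5. The cause was not tested. Levels under 3 counts, which include CIITA in MSC, are limited by depth.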
